A study of Mus musculus with 144 samples.

Results

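The genes described here are 45 protein-coding genes of the cell cycle and DNA replication, among 21846 protein-coding genes and 55364 genes in all. They were chosen by name and fall by textbook role into 13 replication genes, 26 mitotic genes, and 6 genes of chromatin and tubulin whose transcripts are abundant in dividing cells. Of the 45, 44 were found under their own symbol and H2afz was found by its gene identifier, under the newer symbol H2az1. They were read in single cells labelled as microglia, which were sorted from retinas of the Iba1-EGFP strain, in which the promoter of Iba1 (gene Aif1) drives green fluorescence in microglia and other macrophages. The 3 groups of 48 cells came from Iba1-EGFP mice of 10 to 14 weeks treated with PBS (phosphate-buffered saline), from mice of 14 weeks treated with 1 mg/kg ripasudil (low dose), and from mice of 12 weeks treated with 10 mg/kg ripasudil (high dose). The series' title names optic nerve injury, but the labels do not say which eyes were injured, how long the treatment lasted or how many mice were used, and age and dose cannot be told apart.

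Cells that prepare to divide first switch on the genes that copy DNA. The Mcm2 to Mcm7 proteins form the helicase that opens the double strand, Pcna is the ring that holds the DNA polymerases on it, and Rrm1, Rrm2, Tyms and Tk1 supply nucleotides. Mitotic genes follow. The kinase Cdk1 with cyclins A and B drives entry into mitosis, the Aurora kinases and Plk1 build the spindle, Bub1 and Bub1b hold the checkpoint, and Cdc20 and Ube2c destroy the cyclins at the exit. Adult microglia are long-lived, divide rarely at rest and can proliferate after injury.

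Each plate of 3 held 16 cells of every group, and 140 cells were kept (46 PBS, 47 low dose, 47 high dose). FPKM is a level per gene length and per read assigned in that cell. A gene was called detected when its FPKM reached 1, and a kept cell had 1000 or more detected genes. As no mouse was named, each group is 1 sample: the differences below have no replicate check and no test was made. Each group also sat in its own block of wells on every plate, which cannot be told apart from the treatment. Assigned reads ran from 30204 to 4668730 per kept cell (median 1614850). The median number of detected genes was 3143 in PBS cells, 2418 in low-dose cells and 2264 in high-dose cells, so fewer genes of any kind were detected after ripasudil. All 140 cells held at least 3 of 12 microglial markers. At least 3 of 8 monocyte markers were found in 1, 1 and 0 cells of the PBS, low-dose and high-dose groups, and at least 3 of 8 neutrophil markers in 9, 9 and 8. At least 3 of 8 border macrophage markers were found in 4, 4 and 3 cells, with summed FPKM up to 4424, 4724 and 4670. The summed FPKM of the monocyte list ran from 0 to 773, 951 and 1456, and that of the neutrophil list from 0 to 83539, 125908 and 78337. Elane was detected in no cell of any group, and Mpo and Ly6g in no cell of the PBS and high-dose groups. At least 3 of 10 rod markers were found in 6, 7 and 11 cells, and their summed FPKM reached 291, 5187 and 15487. The part of these other transcripts in the results was not tested. No cell held 3 of 7 T and NK cell markers.

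Fewer cells treated with ripasudil held several mitotic transcripts at an FPKM of at least 1. At least 3 of the 26 mitotic members were detected in 19 of 46 PBS cells (41.3%, exact Clopper-Pearson 95% interval 27 to 56.8%). The same held for 11 of 47 low-dose cells (23.4%, 12.3 to 38%) and for 8 of 47 high-dose cells (17%, 7.65 to 30.8%). The intervals of all 3 groups overlap and cover counting error only. On plate 1 the cells with at least 3 mitotic members were 7 of 16, 3 of 15 and 1 of 15 in the order PBS, low and high dose. On plate 2 they were 7, 5 and 5 of 16, and on plate 3 they were 5 of 14, 3 of 16 and 2 of 16. PBS had the highest share on each plate, and the doses were level on plate 2. The gap depends on that limit: with any FPKM above 0 counted, the share was 71.7% in PBS and 70.2% at either dose. A single mitotic member was detected in 76.1% of PBS, 76.6% of low-dose and 63.8% of high-dose cells.

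Replication transcripts were spread over more cells than mitotic ones. At least 3 of the 13 replication members were detected in 24 of 46 PBS cells (52.2%, 36.9 to 67.1%), 21 of 47 low-dose cells (44.7%, 30.2 to 59.9%) and 12 of 47 high-dose cells (25.5%, 13.9 to 40.3%). By plate the counts were 7, 6 and 2 on plate 1, 10, 7 and 7 on plate 2, and 7, 8 and 3 on plate 3. The low dose was level with PBS on plate 3, with 8 of 16 against 7 of 14 cells. The median cell held 3.5 replication members in PBS, 2 under the low dose and 1 under the high dose.

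A cell with few reads passes an FPKM of 1 with a single read, and 9 kept cells had under 300000 reads (5 PBS, 1 low dose, 3 high dose). They held a median of 6 mitotic and 5 replication members with 3852 detected genes, against 1, 2 and 2393 in the other 131 cells. Without them the share with at least 3 mitotic members was 39% in PBS, 21.7% under the low dose and 11.4% under the high dose, and that with at least 3 replication members was 48.8%, 43.5% and 22.7%. After each of the 131 cells was thinned to 300000 reads and 1 read counted as detection, the mitotic shares were 46.3%, 32.6% and 29.5%, and the replication shares 68.3%, 65.2% and 50%. The order of the groups was the same in all of these counts. The gaps to PBS were narrower after thinning, but the limit of detection was then also changed to 1 read and all shares rose. The parts of depth and of the limit were not told apart.

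**Figure D1:**
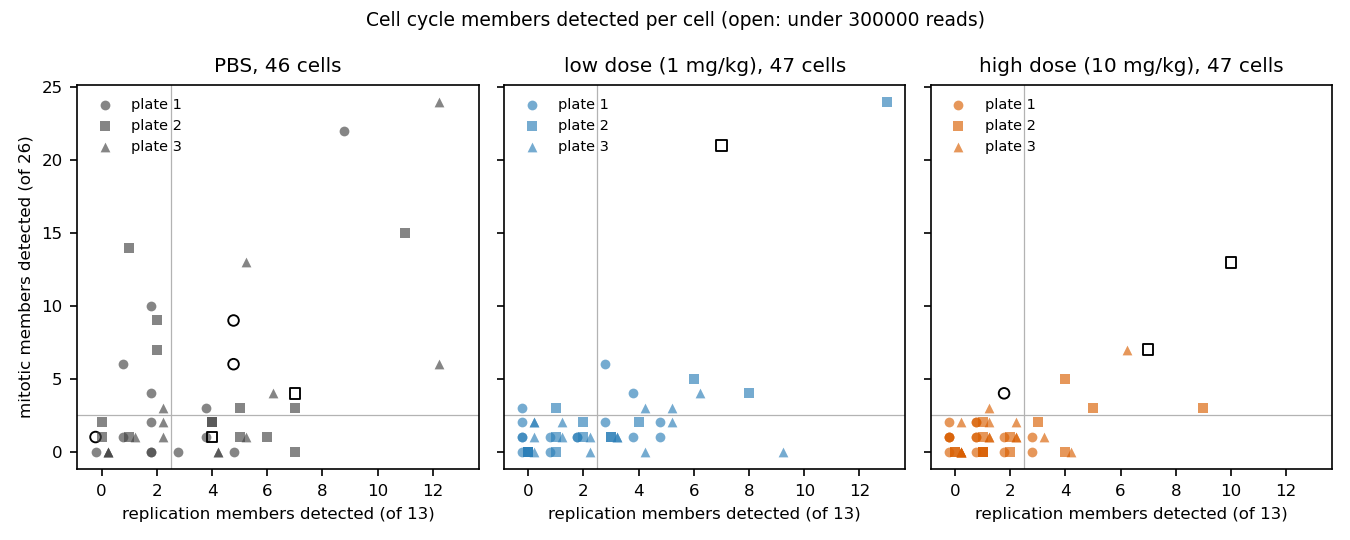
Number of replication members (horizontal axis, of 13) and of mitotic members (vertical axis, of 26) detected in each kept cell, 1 panel per group; symbols mark the plate, open symbols mark the 9 cells under 300000 reads, and grey lines separate cells with at least 3 members from the rest. Most cells sit at the lower left, and the cells with 10 or more mitotic members are 6 in PBS, 2 under the low dose and 1 under the high dose.

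Read together, the counts of both roles sort the cells into 4 classes. In PBS, 12 cells held at least 3 members of both roles, 12 of replication only, 7 of mitosis only and 15 of neither. At the low dose the numbers were 9, 12, 2 and 24, and at the high dose 6, 6, 2 and 33. The class with neither was thus larger at each dose than in PBS, and the class with replication members only was as large at the low dose as in PBS. Over all 140 cells the number of replication members and of mitotic members had a Spearman correlation of 0.47 (0.38 in PBS, 0.48 at the low dose, 0.44 at the high dose). Both numbers also went with the number of detected genes in the cell, with correlations of 0.65 for replication and 0.50 for mitosis. These correlations are over cells that share plates and libraries, and are given as a description.

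A few cells held nearly the whole mitotic programme. The PBS cell in well B4 of plate 3 had 24 of 26 mitotic and 12 of 13 replication members, with Cdk1 at 132 FPKM, Ccnb2 at 173, Aurkb at 93.8 and Mki67, the standard protein marker of cycling cells, at 29.5. The PBS cell in well C4 of plate 1 had 22 mitotic and 9 replication members, with Ccnb1 at 199 and Aurkb at 210 FPKM. At the low dose the cell in well D2 of plate 2 had 24 mitotic and all 13 replication members. These were deep libraries of 2633679, 3151919 and 3008134 reads with 9077, 5484 and 7643 detected genes. The first of them also held 4 of 5 erythroid and 3 of 7 vascular markers at detectable level, and their part in its values was not tested.

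Other cells stood apart in depth or in their mix of members. The low-dose cell in well D1 of plate 2 had 21 mitotic but 7 replication members in only 50760 reads, with 6138 detected genes, 6 of 8 neutrophil markers summing to 125908 FPKM, 4 of 8 monocyte, 5 of 8 border macrophage and all 12 microglial markers. The high-dose cell with the most mitotic members, in well G1 of plate 2, had 13 of them and 10 replication members, but at low levels (37 FPKM summed over the mitotic members, against 1162 in the PBS cell of well B4) and in 161614 reads. Among cells with at least 300000 reads, 10 or more mitotic members were found in 6 PBS, 1 low-dose and 0 high-dose cells, and no high-dose cell had more than 7. The PBS cell in well A6 of plate 2 had 14 mitotic members beside 1 of replication, and the PBS cell in well C4 of plate 3 had 12 replication members beside 6 of mitosis.

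**Figure D2:**
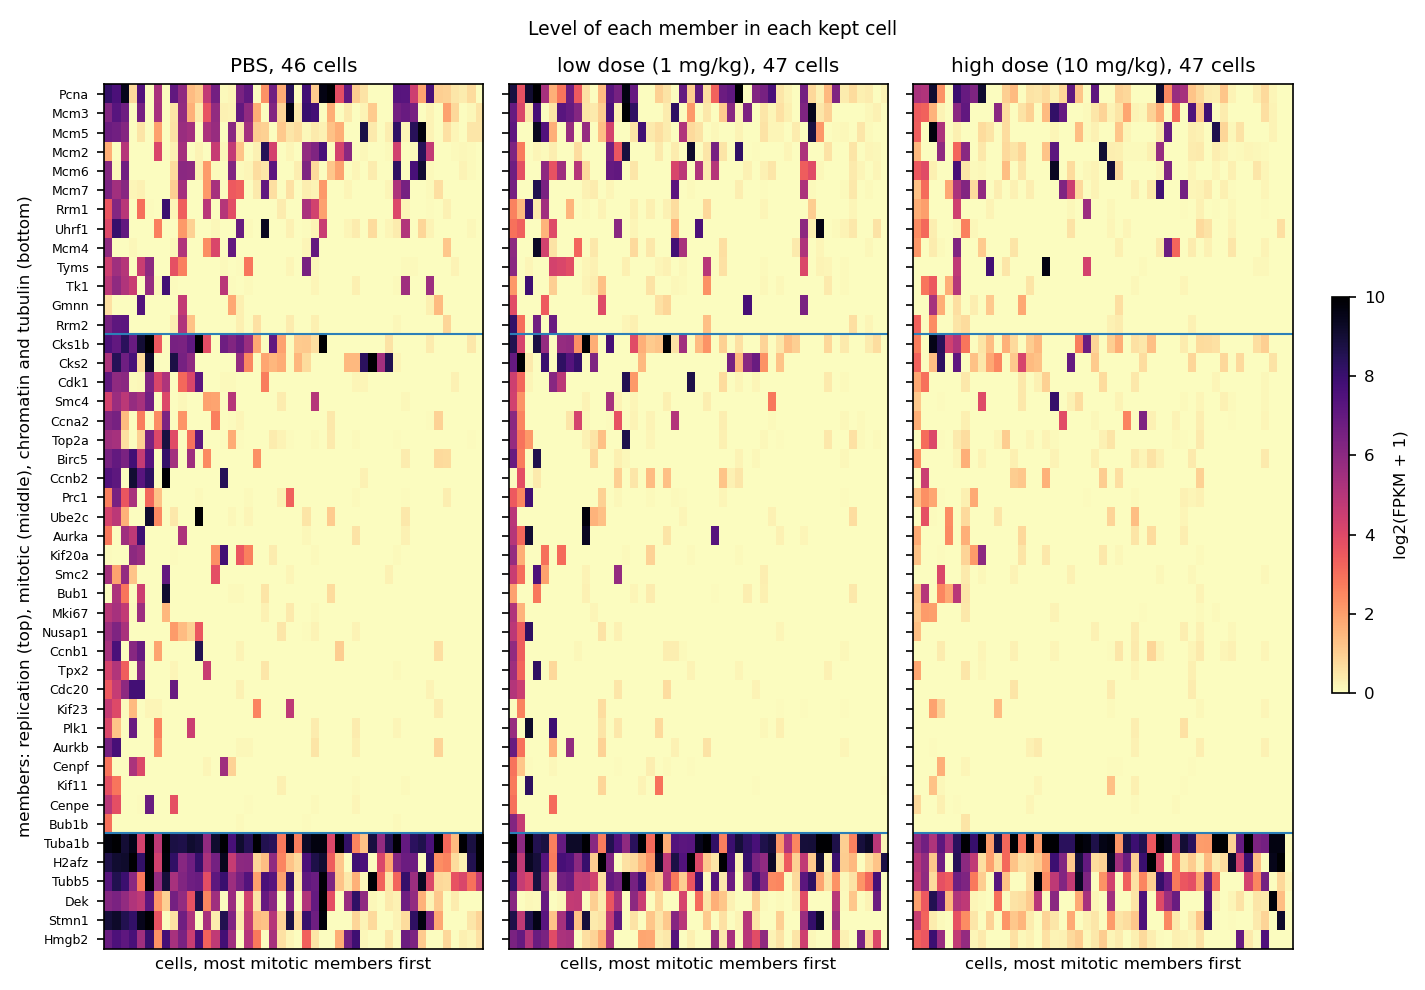
Level of each of the 45 members (rows, log2 of FPKM + 1, colour scale 0 to 10) in each kept cell (columns), 1 panel per group with cells ordered by their number of mitotic members; blue lines separate replication, mitotic, and chromatin and tubulin members. Mitotic transcripts gather in the leftmost cells, replication transcripts reach further right, and the rows of Tuba1b, Tubb5 and H2afz are filled in most cells.

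Which other transcripts a cell held depended on the member. Every cell with Mki67 (10 of 140), Nusap1 (10), Tpx2 (9), Cdc20 (8), Plk1 (8), Cenpf (7), Cenpe (6) or Bub1b (3) also held at least 3 other mitotic members. Among the cells without the respective gene the share with at least 3 other mitotic members was 21.5 to 25.5%. Rrm2, the inducible subunit of ribonucleotide reductase, is a replication gene but had at least 3 mitotic members in 11 of its 12 cells (91.7%). The share was smaller for more widely detected genes. At least 3 other mitotic members were held by 22 of the 56 cells with Cks1b (39.3%) and 15 of the 47 with Cks2 (31.9%). Of the 75 cells with Pcna, 29 (38.7%) held at least 3 mitotic members. Among the cells without Cks1b, Cks2 or Pcna the respective shares were 7.14%, 17.2% and 13.8%. Cells with the rarer genes also had more detected genes (a median of 5780.5 for Mki67 against 3753 for Pcna). The small kinase adaptors Cks1b and Cks2 carried much of the mitotic count: without them, at least 3 mitotic members were found in 15 PBS, 5 low-dose and 5 high-dose cells.

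Reads were concentrated in single cells as well. The 3 highest cells held 39.5% of the summed mitotic FPKM in PBS, 49.8% under the low dose and 66.1% under the high dose. For replication members the shares were 31.9%, 45.8% and 35.3%, and for chromatin and tubulin members 22%, 22.5% and 19%. Mitotic members took a median of 0.0138% of a cell's assigned reads in PBS, 0.00411% under the low dose and 0.000898% under the high dose. The mean shares, which follow the few high cells, were 0.121%, 0.0833% and 0.0113%.

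Among the replication genes Pcna was the most widely detected, in 30 PBS (65.2%), 27 low-dose (57.4%) and 18 high-dose cells (38.3%). Every member but Tuba1b and Tubb5 had a lowest value of 0 in each group. Pcna reached 2938 FPKM in PBS (median 3.29), 3429 at the low dose (median 2.13) and 553 at the high dose (median 0.683). Groups overlapped widely, and the high-dose maximum was the lowest. Its mean log2(FPKM + 1) was 3.76 ± 3.53 (SD over 46 cells) in PBS, 3.59 ± 3.55 (47 cells) under the low dose and 2.18 ± 3.01 (47 cells) under the high dose. The high-dose difference of −1.58 was −1.90, −0.04 and −2.91 on plates 1 to 3, and the low-dose difference of −0.17 was 0.12, 1.12 and −1.83. On plate 2 Pcna was thus level with PBS at the high dose and above it at the low dose. Pcna lies at chr2:132249162-132253314 (ENSMUSG00000027342, minus strand). Only 66.4% of its values above 0 were whole reads, and 2 annotated processed copies (Pcna-ps1 and Pcna-ps2) could share its reads.

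The helicase subunits differed from each other. Mcm3 was detected in 22, 17 and 15 cells of the PBS, low-dose and high-dose groups, with highest values of 837, 1168 and 291 FPKM. On the mean log2 scale it stood at 2.72, 2.40 and 1.58. Mcm5 was detected in 18, 12 and 7 cells, with highest values of 851, 670 and 867 FPKM. Mean log2 levels were 2.24, 1.54 and 0.89. Mcm5 was lower than PBS on all 3 plates at both doses, by −0.97, −0.42 and −0.86 at the low and −1.36, −1.21 and −1.59 at the high dose. The high-dose maximum of Mcm5 was as high as that of PBS, while the number of cells with it was 7 against 18. Mcm2 was detected in 17, 9 and 8 cells, with highest values of 351, 578 and 532 FPKM and mean log2 levels of 1.93, 1.32 and 0.97. On plate 1 Mcm2 was slightly above PBS at both doses, by 0.12 and 0.22. Mcm6 was found in 13, 14 and 7 cells, Mcm7 in 12, 5 and 10, and Mcm4 in 7, 7 and 5. Mcm4, at 0.23 above PBS at the low dose, was the member of the 11 replication genes compared that was not lower there.

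Rrm1 and Tk1, both of nucleotide supply, were lower at both doses. Rrm1, the large subunit of ribonucleotide reductase, was detected in 13 PBS, 6 low-dose cells and 4 high-dose cells, with highest values of 254, 247 and 48.2 FPKM. Its mean log2 level was 1.30, 0.50 and 0.31, and it was below PBS on all 3 plates at both doses. Tk1, thymidine kinase, was detected in 9, 4 and 4 cells, with highest values of 218, 241 and 31.7 FPKM and mean log2 levels of 1.11, 0.36 and 0.30. In the low-dose group 95.5% of the summed Tk1 FPKM came from a single cell. Tk1 overlaps exons of Afmid. Tyms, thymidylate synthase, was found in 9, 6 and 4 cells but had its highest value, 819 FPKM, at the high dose. Rrm2 was found in 5, 5 and 2 cells, and Gmnn, which blocks a second round of replication, in 4, 5 and 4. Uhrf1, which helps copy DNA methylation to the new strand, was found in 9, 9 and 3 cells and its highest value was 674 and 801 FPKM in the PBS and low-dose groups against 7.77 at the high dose.

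Among the mitotic genes Cks1b and Cks2, small subunits that bind cyclin-dependent kinases, were the most widely detected. Cks1b was found in 22 PBS, 20 low-dose cells and 14 high-dose cells, with median values of 0.533, 0.60 and 0.448 FPKM and highest values of 1676, 2328 and 748. The medians of Cks1b did not follow the dose, while its mean log2 level did: 3.0 ± 3.65 in PBS, 2.09 ± 3.11 under the low dose and 1.26 ± 2.19 under the high dose (SD over 46, 47 and 47 cells). The plate differences were −2.06, −0.18 and −0.49 at the low and −2.54, −1.65 and −0.99 at the high dose, all below PBS. Cks2 was found in 20, 14 and 13 cells, with highest values of 1357, 1359 and 314 FPKM and mean log2 levels of 2.41, 1.74 and 0.98. It too was below PBS on all 3 plates at both doses. The low-dose maximum of Cks2 came from the shallow cell in well D1 of plate 2. Whole reads made up 74.1% of the values of Cks1b above 0 and 43.9% of those of Cks2. The source of the values that are not whole was not tested.

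Cdk1 (ENSMUSG00000019942, chr10:69335146-69352938, minus strand), the kinase that starts mitosis, was found in 10 PBS, 7 low-dose and 2 high-dose cells. Its highest value was 147 FPKM in PBS, 417 under the low dose and 6.71 under the high dose, and its mean log2 level 1.15, 0.84 and 0.18. The 2 high-dose cells with Cdk1 at an FPKM of at least 1 had under 300000 reads. Of the 44 deeper high-dose cells 0 reached that level, against 8 of 41 PBS and 6 of 46 low-dose cells. Lower values did occur: on plate 1, 0 of 15 high-dose cells reached an FPKM of 1, but their mean log2 level was 0.14. The same count over all genes was not made. All 41 values of Cdk1 above 0 were whole reads. Smc4, a condensin subunit that packs chromosomes, was found in 11, 4 and 3 cells, with highest values of 101, 40.9 and 273 FPKM and mean log2 levels of 1.11, 0.34 and 0.33. A single high-dose cell held 93.8% of the Smc4 signal of its group. Birc5, also called survivin, a part of the chromosomal passenger complex, was found in 11, 3 and 2 cells, with highest values of 281, 392 and 3.64 FPKM. Birc5 had mean log2 levels of 1.42, 0.43 and 0.15, and both doses were below PBS on all 3 plates. Ccnb2, cyclin B2, was found in 7, 4 and 5 cells, with highest values of 1175, 12.9 and 21.6 FPKM and mean log2 levels of 1.26, 0.22 and 0.23. The cells with Ccnb2 differed in level: the median of the detecting cells was 313 FPKM in PBS, 1.57 under the low dose and 1.21 under the high dose. It has an annotated processed copy, Ccnb2-ps.

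The other mitotic members were rarer. Of the 26, 16 were detected in under 10% of the 140 cells. Just inside that limit were Prc1, which bundles the midzone of the spindle, and Ube2c (14 cells each), and just outside were Aurka and Kif20a (13 each), as was Gmnn. Mki67 was found in 5 PBS, 2 low-dose cells and 3 high-dose cells, with highest values of 47.4, 34.3 and 3.29 FPKM. Top2a, the topoisomerase that untangles sister chromatids, was found in 9, 5 and 3 cells, with highest values of 451, 399 and 15.7 FPKM. Both were less frequent than PBS at either dose, and their high-dose levels were low. Ccnb1, Cdc20, Plk1, Cenpe, Aurkb and Bub1b were found in 7, 6, 5, 4, 3 and 1 PBS cells and in 2, 2, 3, 2, 4 and 2 low-dose cells. All 6 reached an FPKM of 1 in 0 of 47 high-dose cells, which by a limit of 3 counts allows a share of cells with detection of up to 6.38%. They were not absent there: their highest values ran from 0.339 (Aurkb) to 0.774 FPKM (Ccnb1). How many other rare genes had 0 such cells was not counted. Bub1, the exception among the 45 members, was found in more high-dose than PBS cells (5 of 47 against 4 of 46), with a highest value of 30.4 against 551 FPKM. Among cells with at least 300000 reads it was in 4 of 41 PBS and 2 of 44 high-dose cells, the other direction. Over all members the share of cells with detection was smaller than in PBS for 40 of 45 at the low and 44 of 45 at the high dose. Among the 5827 protein-coding genes detected in 10% or more of cells it was smaller for 78.7% and 88.1%, so a smaller share was common to most genes. Highest values of 100 FPKM or more were reached by 17 mitotic members in PBS, 14 under the low dose and 3 under the high dose (Cks1b, Cks2 and Smc4). A highest value is that of a single cell, and the same count over all genes was not made.

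**Figure D3:**
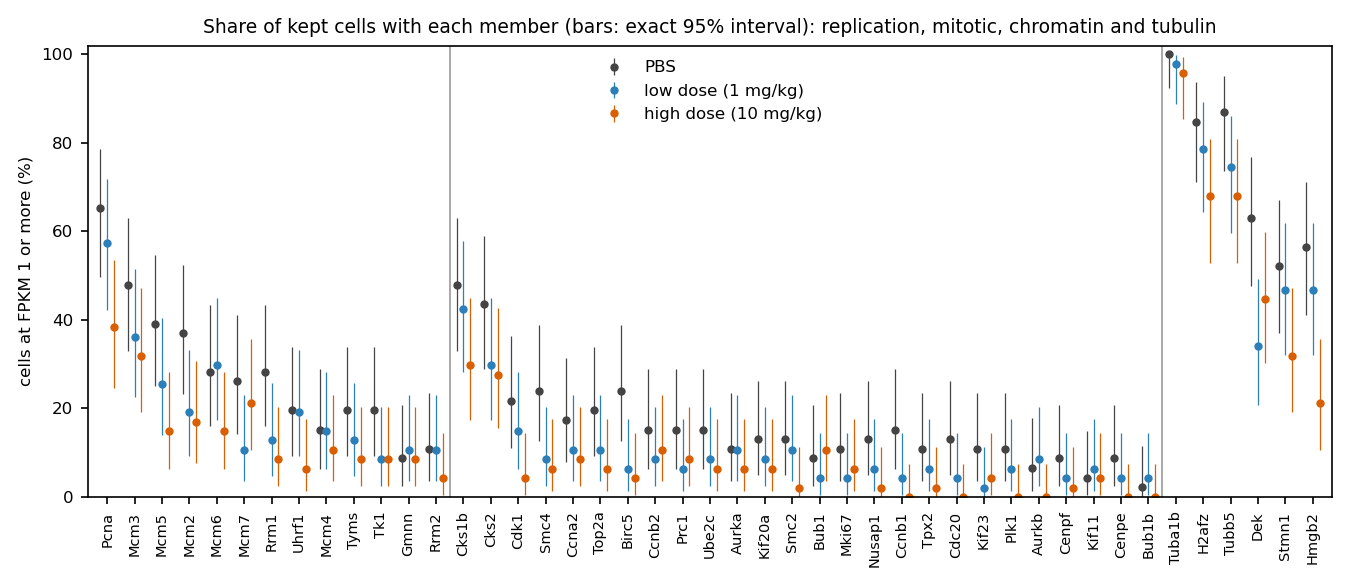
Percentage of kept cells of each group (46 PBS, 47 low dose, 47 high dose) in which each of the 45 members was detected; points are shares and bars their exact 95% intervals, which cover counting error only. The high dose lies below PBS for 44 of 45 members, and its interval overlaps that of PBS for all but Hmgb2. Its share was also smaller for 88.1% of the 5827 more widely detected protein-coding genes described above. How many of those genes have intervals without overlap was not counted.

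The 6 chromatin and tubulin genes had lower mean levels after ripasudil. Tuba1b, Tubb5 and H2afz were detected in 97.9%, 76.4% and 77.1% of the 140 cells, and Dek, Stmn1 and Hmgb2 in 47.1%, 43.6% and 41.4%. Tuba1b, an alpha tubulin, was detected in 46 of 46, 46 of 47 and 45 of 47 cells, ranging from 1.41 to 3366 FPKM in PBS (median 442), 0.134 to 2964 at the low dose (median 306) and 0.0532 to 2772 at the high dose (median 332). The groups overlapped nearly completely. Its difference from PBS was −0.74 at the low and −0.59 at the high dose, but 0.14 and 0.43 on plates 1 and 2 at the high dose. Only 1.39% of its values were whole reads, and it overlaps other annotated genes, so its level is uncertain. Tubb5, a beta tubulin, was detected in 40, 35 and 32 cells, with medians of 60.3, 19.1 and 5.99 FPKM and highest values of 1161, 1205 and 939. Its mean log2 level was 5.29 ± 2.95, 4.18 ± 3.06 and 3.27 ± 2.81 (SD over 46, 47 and 47 cells). Tubb5 (ENSMUSG00000001525, chr17:35833921-35838306, minus strand) had 87.7% whole reads and no overlap. Its high-dose difference of −2.02 was −2.85, −0.95 and −2.37 by plate, while its low-dose difference of −1.12 was −1.95, 0.04 and −1.56, with none on plate 2.

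Stmn1, or stathmin, which breaks down microtubules, had the largest high-dose difference of the 45 members. Stmn1 lies at chr4:134468320-134473843 (ENSMUSG00000028832, plus strand). It was detected in 24, 22 and 15 cells, with medians of 1.54, 0.541 and 0.335 FPKM and highest values of 1172, 753 and 584. Its mean log2 level was 3.68 ± 3.79, 2.72 ± 3.37 and 1.28 ± 2.14 (SD over 46, 47 and 47 cells), and the high-dose difference of −2.41 was −2.31, −1.51 and −3.55 by plate. Hmgb2, a DNA-bending chromatin protein, was detected in 26, 22 and 10 cells, with medians of 4.89, 0.723 and 0.197 FPKM and highest values of 265, 166 and 245. Its high-dose difference of −2.07 was −3.35, −0.98 and −1.89 by plate, and its low-dose difference of −0.79 was −1.52, 0.06 and −0.91. For both genes the high dose was below PBS on each plate and the low dose was not on plate 2. Of the cells with Hmgb2, 32 of 58 (55.2%) held at least 3 mitotic members, against 6 of 82 (7.32%) without it. Whole reads made up 44.4% of the values of Stmn1 and 35.5% of those of Hmgb2.

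H2afz encodes the histone variant H2A.Z, and Dek encodes a chromatin protein. H2afz was detected in 39, 37 and 32 cells, with medians of 70.3, 27.2 and 3.12 FPKM and highest values of 1200, 2501 and 1626. Its mean log2 level was 5.50, 4.92 and 3.78, and its high-dose difference was −2.64, −1.89 and −0.58 by plate. Dek departed from the order of the doses. It was detected in 29 PBS, 16 low-dose cells and 21 high-dose cells, with medians of 16.1, 0.157 and 0.498 FPKM and mean log2 levels of 3.56, 1.57 and 2.28. Its low-dose difference of −1.99 (−2.75, −1.11 and −2.20 by plate) was the largest of the 27 members compared at that dose, and its high-dose difference was −1.29. Dek overlaps exons of Kdm1b, and 47.5% of its values were whole reads, against 25.4% for H2afz.

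Among genes detected in 10% or more of cells, the members had lower medians than all genes at the high dose. Comparisons used the 27 members (11 replication, 10 mitotic, 6 chromatin and tubulin) and the 5827 protein-coding genes that were detected in 10% or more of the 140 cells. A member found mainly in PBS cells passes such a limit through PBS, so the counts and medians are a description. At the high dose all 27 were below PBS, where 82.8% of all genes were. By 1 or more on the log2 scale 12 of 27 were lower, against 10.3% of all genes, and 21 of 27 were lower on all 3 plates, against 38.1%. The median difference was −0.93 for replication, −0.90 for mitotic, and −1.87 for chromatin and tubulin members, beside −0.35 for all genes. After a linear adjustment for the number of detected genes and the plate the medians were −0.51, −0.63 and −1.21, beside −0.01 for all genes. The medians by plate were −0.54, −0.67 and −1.03 for replication, −1.36, −0.78 and −0.75 for mitosis, and −2.47, −1.04 and −2.13 for chromatin and tubulin. Every plate gave a median below PBS for each role. Over all 13 replication and all 26 mitotic members, without the limit on detection, the medians were −0.81 and −0.43. The mitotic one lay near the −0.35 of all genes that passed the limit.

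At the low dose the differences were smaller and depended more on the plate. Of the 27 members 26 were below PBS, where 66.8% of all genes were. Lower by 1 or more were 3 (Ccnb2, Tubb5 and Dek), against 4.08% of all genes, and 12 were lower on all 3 plates, against 23%. The median difference was −0.33 for replication, −0.62 for mitotic, and −0.88 for chromatin and tubulin members, beside −0.17 for all genes. Adjusted for detected genes and plate, the medians were −0.085, −0.34 and −0.56, beside 0.05 for all genes, and 7 of the 11 replication members stayed below 0. Without plate 1 the mitotic median was −0.29, and without the low-dose cell in well E6 of plate 1 the replication median was −0.50, while without the PBS cell in well C4 of plate 1 it was −0.23. The chromatin and tubulin median was −1.41, 0.05 and −1.59 on plates 1 to 3. On plate 2 H2afz and Dek were lower, by −1.46 and −1.11, while the other 4 genes lay between 0.04 and 0.07. Over all 13 replication and all 26 mitotic members, without the limit on detection, the medians were −0.28 and −0.31.

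**Figure D4:**
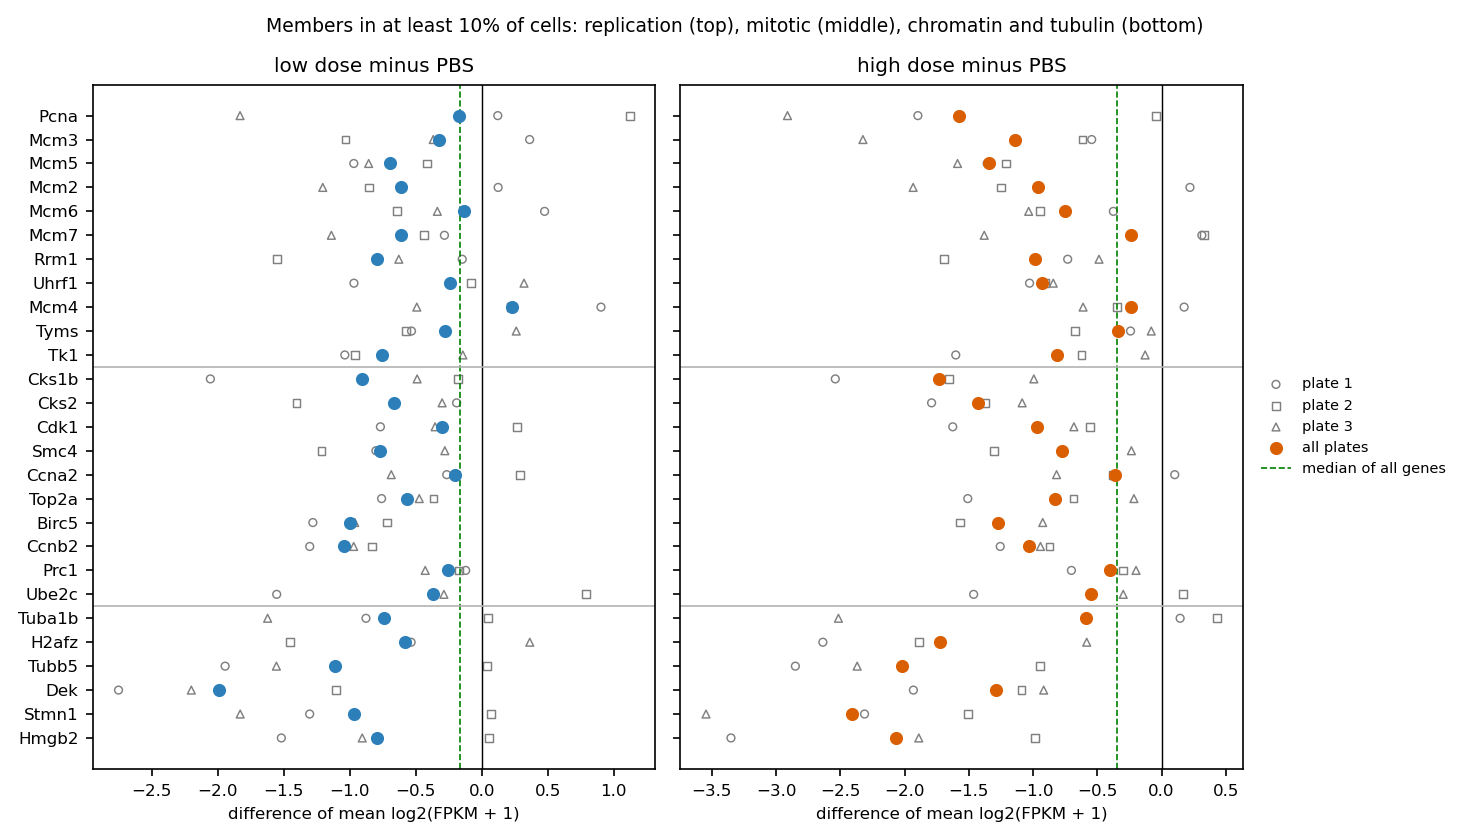
Difference of mean log2(FPKM + 1) from PBS for the 27 members detected in 10% or more of cells, low dose left and high dose right; filled points pool the plates, open symbols give each plate, and the dashed line is the median of 5827 protein-coding genes (−0.17 and −0.35). All 27 pooled points lie below 0 at the high dose and 26 at the low dose, with plates spread by up to several log2 units.

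The doses were also compared with each other. The comparisons with PBS share the PBS cells. From low to high dose 23 of 27 members were lower, where 69.4% of all genes were; 4 were lower by 1 or more (Pcna, Stmn1, Hmgb2 and H2afz), against 4.44%, and 11 on all 3 plates, against 24.5%. The median was −0.47 for replication, −0.22 for mitotic, and −1.02 for chromatin and tubulin members, beside −0.19 for all genes. On this scale the mitotic median was near that of all genes, while as log2 ratio of mean FPKM it was −2.22, beside −0.13 for all genes. Mean FPKM follows single cells. For the 10 mitotic members compared, 1 cell held 40.3% (Cks1b) to 96.4% (Ube2c) of the low-dose sum. At the high dose 1 cell held 35.1% (Prc1) to 93.8% (Smc4). Pcna was lower at the high dose by −1.41 (−2.02, −1.16 and −1.08 by plate) and Stmn1 by −1.44 (−1.01, −1.58 and −1.71). Smc4 and Ccnb2 were level, with differences of −0.01 and 0.01. Dek and Mcm7 were higher at the high than at the low dose, by 0.71 and 0.37, and Dek was so on each plate (0.82, 0.02 and 1.28).

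Other genes of the same pathways were read from 4 lists that hold no member. Of all genes that passed the limit on detection, 66.8% were below PBS at the low and 82.8% at the high dose. Their medians were −0.17 and −0.35. Of 42 further replication genes 26 passed. Below PBS were 17 of these at the low and 23 at the high dose, with medians of −0.12 and −0.49. Slbp, which binds histone messages, was lower by −0.88 and −0.42, and Fen1, which trims Okazaki fragments, by −0.58 and −0.92. Pold2, a subunit of DNA polymerase delta, was at 0.26 at the low and −1.14 at the high dose. Dut, which removes dUTP, was above PBS at both doses, by 0.69 and 0.14. Of 42 further mitotic genes 9 passed, and 8 were below PBS at the low and all 9 at the high dose, with medians of −0.62 and −0.85. Pttg1, or securin, which guards sister chromatids, was lower by −0.84 and −1.65, and Spc25, a kinetochore subunit, by −0.80 and −1.15. Among the genes that passed, the further mitotic genes thus had medians close to those of the mitotic members. The further replication genes that passed lay nearer to all genes. Over all 42 genes of each list, without the limit on detection, the medians were −0.26 and −0.37 for mitosis. For replication they were −0.22 and −0.38. At the high dose both lists then lay near the −0.35 of all genes that passed.

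The genes that control the start of the cycle showed no common direction at the low dose. Of 19 genes for cyclins, kinases and E2F factors of the G1 phase 8 passed. Below PBS were 5 at the low and 7 at the high dose, beside 66.8% and 82.8% of all genes. Their medians were −0.16 and −0.78. Over all 19 listed genes, without the limit on detection, the medians were −0.05 and −0.25. Cdk4, the kinase of the D cyclins, was at −0.17 and −0.95, Ccnd3 (cyclin D3) at −0.49 and −1.10, and E2f4, a repressive E2F factor, at −0.52 and −0.92. Myc was at 0.72 at the low and −0.69 at the high dose. Of 14 inhibitors of the cycle and retinoblastoma proteins 7 passed, and all 7 were below PBS at both doses, with medians of −0.44 and −0.72. The low-dose result depended on the measure. Adjusted for detected genes and plate, its median was −0.06 with 4 of 7 below 0, and as log2 ratio of mean FPKM it was 0.31. On all 3 plates 1 of the 7 was lower at the low and 6 at the high dose. Cdkn1a (p21), which stops cyclin-dependent kinases, was lower by −0.62 and −1.63, and the anti-proliferative genes Btg1 and Btg2 by −0.75 and −1.76 and by −0.50 and −2.07. At the high dose Cdkn1a, Btg1 and Btg2 were below PBS on each plate. Over all 14 listed inhibitors 11 were below PBS at the high dose, with a median of −0.30, which is near the median of all genes, −0.35.

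Promoter sequences were searched for motifs known from cell cycle genes. E2F factors, which switch on replication genes, bind words such as TTTCCCGC, TTTGGCGC, TTTCGCGC and TTTGCCGC. The CHR element, TTTGAA or TTTAAA, is bound by the DREAM and MuvB complexes and times mitotic genes, often near CCAAT boxes, the sites of the factor NF-Y. These words were searched on both strands in windows from 250 bases before to 50 bases after the starts annotated by RefSeq (GRCm38.p6), which held 36 of the 45 members in 39 windows. An E2F word was found for 5 of 11 replication members and 1 of 21 mitotic members, against 2.61% of 27025 genes in the same table. These 27025 genes were not limited to protein-coding ones, while all members are protein-coding. A CHR word was found for 5 of 11 and 18 of 21, against 30.6%, and a CCAAT box for 9 of 11 and 19 of 21, against 41.1%. CHR and CCAAT occurred together for 4 of 11 replication and 17 of 21 mitotic members, against 13.4%. The motifs of different kinds overlapped once, an E2F word and a CCAAT box of Mcm7. A match is a description of the sequence and not a measured site, and the members were chosen for their roles, of which these motifs are a known feature.

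**Figure D5:**
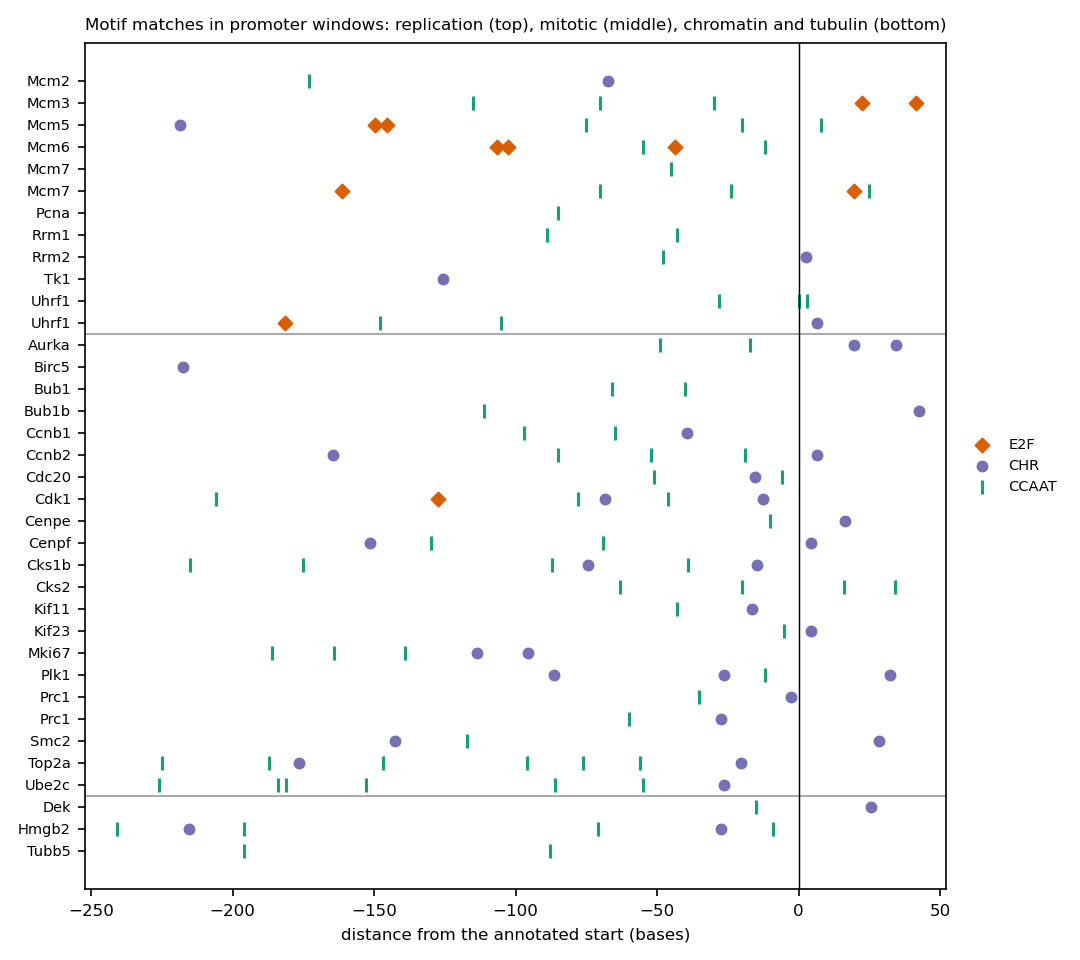
Position of E2F words, CHR words and CCAAT boxes (either strand) in the promoter windows of the members, as distance in bases from the annotated start; a gene with 2 windows has 2 rows, windows without a match are left out, and grey lines separate replication, mitotic, and chromatin and tubulin members. E2F words lie in the replication rows and in Cdk1, and CHR words near the start lie mainly in the mitotic rows.

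Promoter sequences of 6 members show the different arrangements, 170 bases each up to the base before the start, 5′ to 3′ on the strand of the gene, from RefSeq on GRCm38.p6. Capitals mark the searched words on either strand (CCAAT reads ATTGG and TTTGAA reads TTCAAA on the other strand). Mcm5 (chr8:75109339-75109508, plus strand) and Mcm6 (chr1:128359706-128359875, minus strand) are helicase subunits with paired, overlapping E2F words and CCAAT boxes. Top2a (chr11:99024190-99024359, minus strand) and Plk1 (chr7:122159265-122159434, plus strand) have a CHR word close to the start, with 4 CCAAT boxes in Top2a and 1 in Plk1, and Cks2 (chr13:51645062-51645231, plus strand) has CCAAT boxes only. Hmgb2 (chr8:57511673-57511842, plus strand), the chromatin gene that went most with mitotic members in the same cells, has a CHR word between 2 CCAAT boxes.
Mcm5: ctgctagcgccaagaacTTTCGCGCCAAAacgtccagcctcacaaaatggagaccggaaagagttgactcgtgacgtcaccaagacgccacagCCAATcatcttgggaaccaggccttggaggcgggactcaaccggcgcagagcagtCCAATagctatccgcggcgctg
Mcm6: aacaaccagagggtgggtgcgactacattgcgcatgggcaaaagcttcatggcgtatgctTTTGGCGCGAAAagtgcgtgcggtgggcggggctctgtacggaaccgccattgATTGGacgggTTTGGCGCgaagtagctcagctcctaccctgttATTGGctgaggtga
Top2a: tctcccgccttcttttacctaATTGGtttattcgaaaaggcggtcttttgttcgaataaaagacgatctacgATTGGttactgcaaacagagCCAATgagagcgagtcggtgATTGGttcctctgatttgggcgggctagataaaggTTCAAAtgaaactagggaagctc
Plk1: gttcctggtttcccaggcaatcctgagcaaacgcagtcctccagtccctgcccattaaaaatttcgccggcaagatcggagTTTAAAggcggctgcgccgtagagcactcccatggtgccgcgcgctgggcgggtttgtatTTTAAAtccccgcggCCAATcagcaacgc
Cks2: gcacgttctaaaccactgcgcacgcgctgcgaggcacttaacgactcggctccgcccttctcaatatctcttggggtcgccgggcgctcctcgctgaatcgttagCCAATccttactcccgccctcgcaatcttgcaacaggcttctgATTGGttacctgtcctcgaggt
Hmgb2: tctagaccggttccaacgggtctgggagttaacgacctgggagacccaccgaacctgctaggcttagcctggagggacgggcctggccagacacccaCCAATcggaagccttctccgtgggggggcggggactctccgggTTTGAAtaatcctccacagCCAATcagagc

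The 6 genes shown differed in how many cells held them. Mcm5 was found in 39.1%, 25.5% and 14.9% of PBS, low-dose and high-dose cells, and Mcm6 in 28.3%, 29.8% and 14.9%. Top2a was found in 19.6%, 10.6% and 6.38%, Plk1 in 10.9%, 6.38% and 0%, and Cks2 in 43.5%, 29.8% and 27.7%. Hmgb2 was found in 56.5%, 46.8% and 21.3%.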

How the data were processed

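Single retinal cells were sorted by fluorescence and lysed, and their cDNA was amplified and made into Nextera XT libraries, per the labels' protocols. The submitters' processing notes name featureCounts 1.6.1, STAR 2.7.2b, cutadapt 1.16, Trimmomatic 0.36 and Trim Galore 0.4.4, with no order of use, and the build GRCm38.p6 (mm10). The authors deposited FPKM values per gene and cell. Use of strand is not given in the sources used here. Of all values above 0, 53.4% were whole reads within 0.01 of a read and 19.6% were 0.5, 0.33 or 0.25 of one, so no count model was used. Cells with fewer than 1000 detected genes were left out (4 cells). Levels are means of log2(FPKM + 1), with differences for all plates together and for each plate. Shares have exact Clopper-Pearson 95% intervals over cells, which cover counting error only, as no mouse was named and each group is 1 sample. The libraries carry no molecular identifiers. Doublets were not called; the highest correlation between cells was 0.71. Named genes are the 4 of each role detected in most cells, the 2 with the largest difference at each dose, and 2 per dose from each other pathway list; further members are examples. Members and lists were chosen with earlier results of these data known. Calculations used Python 3.11.15, numpy 2.4.6, pandas 2.3.3, scipy 1.17.1 and matplotlib 3.10.9, and were checked on simulated data. Promoters came from the RefSeq table, which held 36 of 45 members. Alternatives covered the pseudocount, detection, filters, plates, depth and members.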

Additional observations from a re-analysis of the deposited data

How the results depend on the processing

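Of 190 alternative values for 10 results, 45 moved and 1 turned its direction. A median counts as moved beyond 1 SD of its values on the 3 plates. A difference of shares counts as moved when the share of either group left its original 95% interval, even where the difference itself hardly altered. For the low-dose chromatin and tubulin median that SD, 0.897, exceeded the size of the difference, −0.879. The rule could hardly mark a move there, and 0 of its 22 alternatives moved. No paired analysis was possible because the labels name plates and wells, not animals or replicates, and no result comes from a test. Leaving out cells under 300000 reads, members under 80% whole reads, Cks1b and Cks2, or single cells in turn was chosen after seeing the data. The low-dose replication median moved to −0.56 with a pseudocount of 0.1 and −0.085 when adjusted for detected genes and plate. The low-dose mitotic median moved to −0.90 and −0.29 with pseudocounts of 0.1 and 10, −0.32 with members in at least 5% of cells, −0.31 with members in any cell, −0.34 when adjusted, −0.29 without plate 1, −0.89 without cells with 3 rod markers and −0.88 without cells under 300000 reads. The high-dose replication median moved to −1.31 and −0.41 with pseudocounts of 0.1 and 10, −1.34 with members in at least 25% of cells, −0.51 when adjusted, −0.64 without plate 3 and −0.58 relative to all genes. The high-dose mitotic median moved to −0.44 with a pseudocount of 10, −3.02 as log2 ratio of mean FPKM, −0.45, −1.58 and −0.43 with members in at least 5%, at least 25% or any of the cells, −1.27 without members with overlaps or copies and −0.55 relative to all genes. The high-dose chromatin and tubulin median moved to −1.08 with a pseudocount of 10 and −0.99 as ratio of mean FPKM. The low-dose mitotic share, −17.9 percentage points, turned to 0.51 for at least 1 member, and moved to −1.53 with any FPKM above 0, −17.6 for at least 5 members, −13.3 without members under 80% whole reads and −22.0 without Cks1b and Cks2. The high-dose mitotic share, −24.3 points, moved to −1.53 with any FPKM above 0, −24.1 at an FPKM of 10, −12.3 and −17.6 for at least 1 and 5 members, and −17.5 without members under 80% whole reads. The low-dose replication share, −7.49 points, moved to −4.12 with any FPKM above 0, −2.44 in cells with at least 2000 genes, −12.4 and −13.5 for at least 1 and 5 members, −13.7 without members with overlaps or copies and −3.08 when thinned to 300000 reads, and was −1.51 without plate 2. The high-dose replication share, −26.6 points, moved to −10.5 with any FPKM above 0, −32.9 at an FPKM of 10, −12.4 and −24.1 for at least 1 and 5 members and −18.3 when thinned. Alternatives that change the detection limit or the members count other cells by construction. For shares, thinning also changed the detection limit, to 1 read. For the others the cause was not tested.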
